A study of Mus musculus with 6 samples.

Results

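The marrow macrophage identity genes examined here are a list of 10 genes (*Mrc1*, *Cd163*, *C1qa*, *C1qb*, *C1qc*, *Vcam1*, *Adgre1*, *Csf1r*, *Mertk* and *Timd4*), found by their symbols among the 16579 genes measured by RNA sequencing of bone marrow cells sorted as megakaryocytes. The samples were 6 libraries from 3-month-old mice. Of these, 3 came from Becn1f/f mice, which carry floxed *Becn1* and no Cre (control libraries), and 3 were labelled Becn1f/f;Pf4-iCre, in which the same floxed allele is combined with a Cre recombinase under the control of platelet factor 4 (*Pf4*) sequence, meant to act in the megakaryocytic lineage. Whether each library came from 1 mouse or from several, and the sex of the mice, are not given in the sources used here. All 10 genes were measured, and 9 of them passed the filter on low counts, *Timd4* being the exception.

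Macrophages of the marrow clear dying cells and expelled erythroid nuclei, recycle iron and hold maturing erythroblasts in islands around themselves. Their growth depends on the receptor encoded by *Csf1r*, which monocytes carry as well. *Adgre1* encodes the adhesion receptor by which mouse macrophages are usually recognized, *Mrc1* the mannose receptor, and *Cd163* the scavenger receptor for complexes of hemoglobin with haptoglobin. *C1qa*, *C1qb* and *C1qc* encode the chains of C1q, which starts the classical complement pathway and is made in tissues largely by macrophages. *Mertk* and *Timd4* encode receptors for phosphatidylserine on dying cells, *Mertk* through bridging proteins, and *Vcam1* encodes an adhesion molecule that macrophages of erythroblastic islands share with stromal and activated endothelial cells.

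Estimated counts summed to between 16467560 and 17156728 per library. The targeted gene, *Becn1*, was at 128, 109 and 119 CPM (counts scaled to a common library size) in control libraries 1, 2 and 3, and at 106, 104 and 110 CPM in the libraries labelled Becn1f/f;Pf4-iCre 1, 2 and 3. These ranges overlapped, so *Becn1* does not set the genotypes apart in these sums over the gene, and the second group is called by its label throughout. Markers of megakaryocytes and platelets were present at low levels. The 15 genes of that list summed to 278 to 388 CPM in the control libraries and to 291 to 366 CPM in the labelled Pf4-iCre libraries, most of it from *Itga2b* (142 to 187 CPM over all libraries) and *Itgb3* (79.8 to 143 CPM). The platelet genes *Gp9* and *Pf4* reached no more than 1.78 and 6.73 CPM. The 10 monocyte markers summed to 9850 to 11631 CPM in the control libraries, far above the megakaryocyte list.

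Compared per transcript length, the members fell into a high and a low tier. *Csf1r* was the highest, with a mean of 133 FPKM (a level scaled for transcript length and library depth) over the 6 libraries and a range of 99.3 to 160 FPKM, and lay above 96.0% of all genes. *Adgre1* followed at 64.6 FPKM (49.3 to 83.5 FPKM), and *Vcam1* at 18.5 FPKM (11.2 to 35.5 FPKM). The ranges of these 3 genes did not overlap, and the order held in 6 of 6 libraries. The other 7 genes were much lower. *C1qb*, *C1qc*, *C1qa* and *Mrc1*, with means of 4.45, 3.79, 3.73 and 3.15 FPKM, overlapped with their neighbors in the order, although *C1qa* exceeded *Mrc1* in only 4 of 6 libraries and *C1qb* exceeded *C1qc* in 5 of 6. *Cd163* was at 1.58 FPKM and lay below *Mrc1* in 6 of 6 libraries, with overlapping ranges. *Mertk* at 0.228 FPKM and *Timd4* at 0.140 FPKM formed the lowest pair, and *Mertk* was separated from *Cd163* in 6 of 6 libraries. Together, *Csf1r*, *Adgre1* and *Vcam1* made up 93.9% to 97.5% of the counts of the 10 genes in each library, so a sum over the list is a sum of these genes. That sum was 745, 681 and 682 CPM in control libraries 1, 2 and 3, and 888, 782 and 728 CPM in the labelled Pf4-iCre libraries, with overlapping groups.

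**Figure D1:**
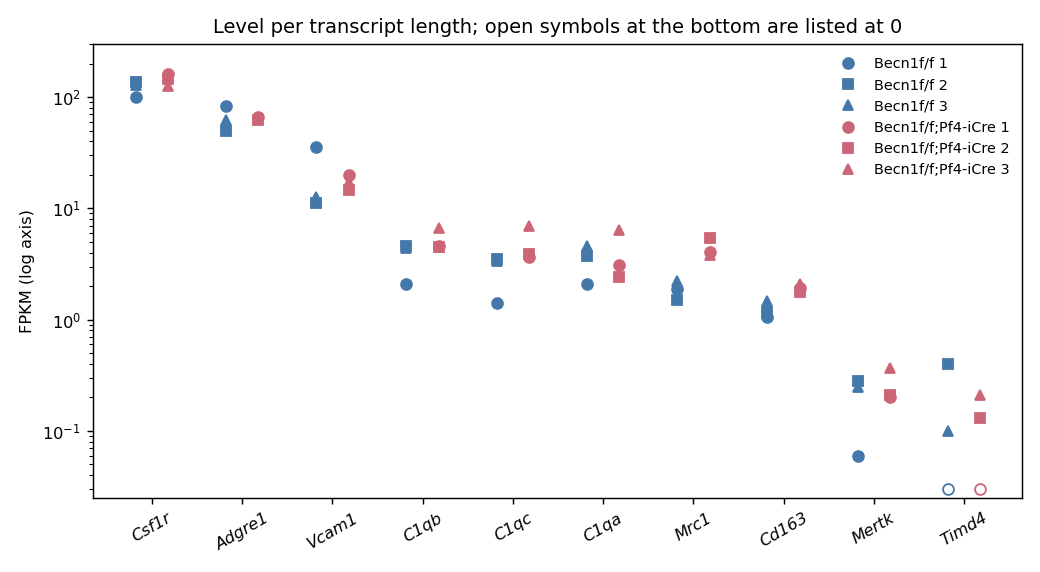
FPKM of each macrophage identity gene (log axis) in the 6 libraries, ordered by the mean over all libraries; blue symbols are control libraries and red symbols the labelled Pf4-iCre libraries, with the symbol shape giving the replicate number. *Csf1r* lies between 99.3 and 160 FPKM, whereas *Mertk* and *Timd4* stay at or below 0.400 FPKM; open symbols mark libraries in which *Timd4* is listed at 0.

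The question put to each gene was whether its level differed between the genotypes. Of the 9 tested members, *Mrc1*, *Cd163* and *C1qc* were higher in the labelled Pf4-iCre libraries, at a fold change of at least 1.5 and an unadjusted *P* under 0.05 in edgeR's quasi-likelihood test, and 0 were lower. Among all 12256 genes tested, 1.36% were called higher and 0.938% lower by the same thresholds, 2.3% in either direction. None of the 9 had an adjusted p under 0.05 in that test (5 of the 12256 genes did, 0.0408%), the lowest being 0.0572 for *Mrc1*, and 3 of the 9 had an unadjusted *P* under 0.05, against 6.31% of all genes. DESeq2 gave the same 3 calls, and *Mrc1* an adjusted p of 5.91e-06. The median log2 fold change of the 9 genes was 0.40 and that of all tested genes -0.02. The value of 0.40 is that of *Mertk*, a gene with 4 to 26 reads per library. With 1 library left out, the median of the members ran from 0.27 to 0.67. In bulk RNA, more macrophages, more of other cells that carry these genes, and more RNA of these genes per cell cannot be told apart.

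The scavenger receptor genes *Mrc1* and *Cd163* showed the clearest difference. *Mrc1* was at 9.78, 7.42 and 10.7 CPM in control libraries 1, 2 and 3, and at 20.9, 27.0 and 18.8 CPM in the labelled Pf4-iCre libraries 1, 2 and 3. Every labelled Pf4-iCre library lay above every control library, and the lowest of them was well clear of the highest control. The group means were 9.31 ± 1.70 CPM for the controls and 22.3 ± 4.26 CPM for the labelled Pf4-iCre libraries (SD over 3 libraries). This came to a log2 fold change of 1.26 (standard error 0.19, 95% interval 0.84 to 1.68) with an adjusted p of 0.0572 in the edgeR test. *Cd163* was at 4.26, 4.72 and 5.76 CPM in the control libraries and at 8.27, 7.18 and 8.49 CPM in the labelled Pf4-iCre libraries. These groups were also separate, and the spread within each was small. Its log2 fold change was 0.70 (standard error 0.20, 95% interval 0.27 to 1.13), with group means of 4.91 ± 0.766 and 7.98 ± 0.704 CPM (SD over 3 libraries) and an adjusted p of 0.413 in the edgeR test. Both receptors were also higher relative to *Csf1r* of the same library. *Mrc1* counts came to 1.54% to 2.68% of *Csf1r* counts in the control libraries and to 3.56% to 5.25% in the labelled Pf4-iCre libraries. For *Cd163* the same ratio was 0.976% to 1.30% and 1.39% to 1.91%. An exact two-sided permutation test of 3 libraries against 3 gave p = 0.1 for *Mrc1* and for *Cd163*, the smallest p that this design allows.

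The stretches before the annotated starts of these receptor genes, taken from RefSeq on GRCm38.p6, are shown because the genes stand together in the comparison. They span 200 bases, from 230 to 31 bases before the start, and lie at chr2:14229184-14229383 for *Mrc1* and chr6:124304421-124304620 for *Cd163*, both on the plus strand. Capitals mark matches to any of the motifs searched on both strands, which were GAGGAA for PU.1, TGCTGA for the MAF family, TTGCNNAA for C/EBP and the palindromic element of the glucocorticoid receptor.
Mrc1: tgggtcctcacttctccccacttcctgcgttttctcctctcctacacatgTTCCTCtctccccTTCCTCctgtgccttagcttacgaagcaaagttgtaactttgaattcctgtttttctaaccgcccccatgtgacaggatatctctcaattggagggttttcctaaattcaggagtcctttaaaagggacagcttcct
Cd163: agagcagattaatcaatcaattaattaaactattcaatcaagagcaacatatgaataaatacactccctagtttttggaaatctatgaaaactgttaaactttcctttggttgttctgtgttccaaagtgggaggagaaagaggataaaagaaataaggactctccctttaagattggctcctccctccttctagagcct
The *Mrc1* stretch held GAGGAA at 2 places, both on the minus strand, beginning 180 and 167 bases before the start, and none of the other motifs. None of the 4 motifs was found in the *Cd163* stretch. Among 32851 windows of the same length and position, 18.7% held GAGGAA, 13.3% TGCTGA, 7.89% TTGCNNAA and 0.32% the glucocorticoid receptor element.

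The genes of the C1q chains moved less evenly. *C1qc* was at 1.07, 2.59 and 2.43 CPM in control libraries 1, 2 and 3, and at 2.82, 2.77 and 5.05 CPM in the labelled Pf4-iCre libraries. The groups did not overlap, but the gap was narrow, since control library 2 and labelled Pf4-iCre library 2 differed by less than the counting error of their 45 and 46 reads. Its log2 fold change was 0.80 (standard error 0.36, 95% interval 0.02 to 1.58) with an adjusted p of 0.781 in the edgeR test. This call depended on single libraries, since the log2 fold change was 0.51 without control library 1 and 0.46 without labelled Pf4-iCre library 3, and neither passed. It was also lost with limma on log2(FPKM + 1) and log2(FPKM + 0.1), at 0.64 and 0.82.

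*C1qb* was at 1.69, 3.57 and 3.33 CPM in the control libraries and at 3.78, 3.44 and 5.17 CPM in the labelled Pf4-iCre libraries. Here the groups overlapped, and the log2 fold change of 0.52 (standard error 0.30, 95% interval -0.13 to 1.18, adjusted p = 0.884) did not pass. *C1qa* was at 1.63, 2.88 and 3.39 CPM and at 2.46, 1.81 and 4.87 CPM, and its groups overlapped over most of their range. Its log2 fold change of 0.21 (95% interval -0.62 to 1.04, adjusted p = 0.978) turned to -0.03 without control library 1 and to -0.30 without labelled Pf4-iCre library 3. In every one of the 3 genes, control library 1 was the lowest library and labelled Pf4-iCre library 3 the highest. The chains were counted with 17 to 87 reads per gene and library, so their ratios are coarse. *C1qc* had fewer reads than *C1qa* in 3 of 3 control libraries, at ratios of 0.654, 0.900 and 0.717. It had more in 3 of 3 labelled Pf4-iCre libraries, at ratios of 1.15, 1.53 and 1.04. Counting error covers some of these differences, such as 45 against 50 reads in control library 2 and 85 against 82 in labelled Pf4-iCre library 3. How often other gene pairs part in this way was not tested. *C1qc* to *C1qb* ratios lay between 0.630 and 0.977, with *C1qc* the lower of the pair in all 6 libraries.

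In the RefSeq table, *C1qb*, *C1qc* and *C1qa* follow each other on chromosome 4 with no other gene between them. Stretches of the same 200 bases were at hand for *C1qb* (chr4:136886231-136886430) and *C1qc* (chr4:136892945-136893144), both on the minus strand of GRCm38.p6, and are shown 5′ to 3′ with matches in capitals because these neighbors were the closest pair of C1q genes across the libraries.
C1qb: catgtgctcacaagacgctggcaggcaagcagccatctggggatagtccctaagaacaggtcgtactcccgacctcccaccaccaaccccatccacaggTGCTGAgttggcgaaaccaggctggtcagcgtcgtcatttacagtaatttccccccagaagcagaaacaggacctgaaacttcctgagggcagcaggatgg
C1qc: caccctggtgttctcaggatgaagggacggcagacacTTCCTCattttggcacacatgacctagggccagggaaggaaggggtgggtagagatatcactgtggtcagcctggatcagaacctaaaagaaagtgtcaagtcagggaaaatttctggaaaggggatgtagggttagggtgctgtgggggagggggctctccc
The *C1qb* stretch held TGCTGA once, on the plus strand of the gene, 131 bases before the start, and *C1qc* held GAGGAA once, on the opposite strand, 193 bases before the start. Neither held the motif of the other. Of the 10 members, 6 had such a window; of the remaining ones with a window, *Timd4* held TGCTGA at 2 places and *Mertk* none of the 4 motifs.

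*Csf1r*, the receptor for the macrophage growth factors CSF1 and IL34, was at 364, 483 and 444 CPM in control libraries 1, 2 and 3, and at 588, 515 and 444 CPM in the labelled Pf4-iCre libraries. Control libraries 2 and 3 fell among the labelled Pf4-iCre libraries or beside them. The log2 fold change of 0.26 (adjusted p = 0.884) did not pass, and its 95% interval, -0.08 to 0.60, reaches just past a fold change of 1.5. *Adgre1*, the adhesion receptor, was at 249, 141 and 173 CPM in the control libraries and at 197, 180 and 187 CPM in the labelled Pf4-iCre libraries. All 3 labelled Pf4-iCre libraries lay within the range of the controls. Its log2 fold change was 0.0015 (standard error 0.19, 95% interval -0.40 to 0.41, adjusted p = 0.999).

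*Vcam1* was decided by 1 library. It was at 113, 34.2 and 38.0 CPM in control libraries 1, 2 and 3, and at 64.1, 44.4 and 52.4 CPM in the labelled Pf4-iCre libraries. Control library 1 stood above all others and the other controls stood below all others. With all libraries the log2 fold change was -0.20 (standard error 0.36, 95% interval -0.99 to 0.60, adjusted p = 0.978). Without control library 1 it was 0.58 (standard error 0.17, adjusted p = 0.268 in the edgeR test), just short of a fold change of 1.5. That library was also the highest in *Adgre1* and the lowest in *Csf1r*, *Cd163*, *Mertk* and each C1q gene. Stromal and endothelial markers summed to 144, 120 and 145 CPM in control libraries 1, 2 and 3, and their part in the *Vcam1* levels was not tested.

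The receptors for dying cells were near the limit of detection. *Mertk* had 4, 20 and 18 reads in the control libraries and 14, 14 and 26 reads in the labelled Pf4-iCre libraries. The groups overlapped, and the count of 4 has an exact 95% Poisson interval of 1.09 to 10.2 reads, which covers counting error only. The log2 fold change was 0.40 (standard error 0.48, 95% interval -0.65 to 1.44, adjusted p = 0.968), and it was -0.00053 without control library 1. *Timd4* had 0, 6 and 3 reads in the control libraries and 0, 3 and 4 reads in the labelled Pf4-iCre libraries. For counts of 0, a one-sided limit of 3 reads was used in place of the two-sided interval above. By this limit, a count of 0 allows up to 0.188 CPM in control library 1 and 0.180 CPM in labelled Pf4-iCre library 1. These limits hold for single libraries. The group means were 0.171 and 0.140 CPM. *Timd4* did not pass the filter on low counts, so no fold change is given, and its reads are too few to judge a difference.

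**Figure D2:**
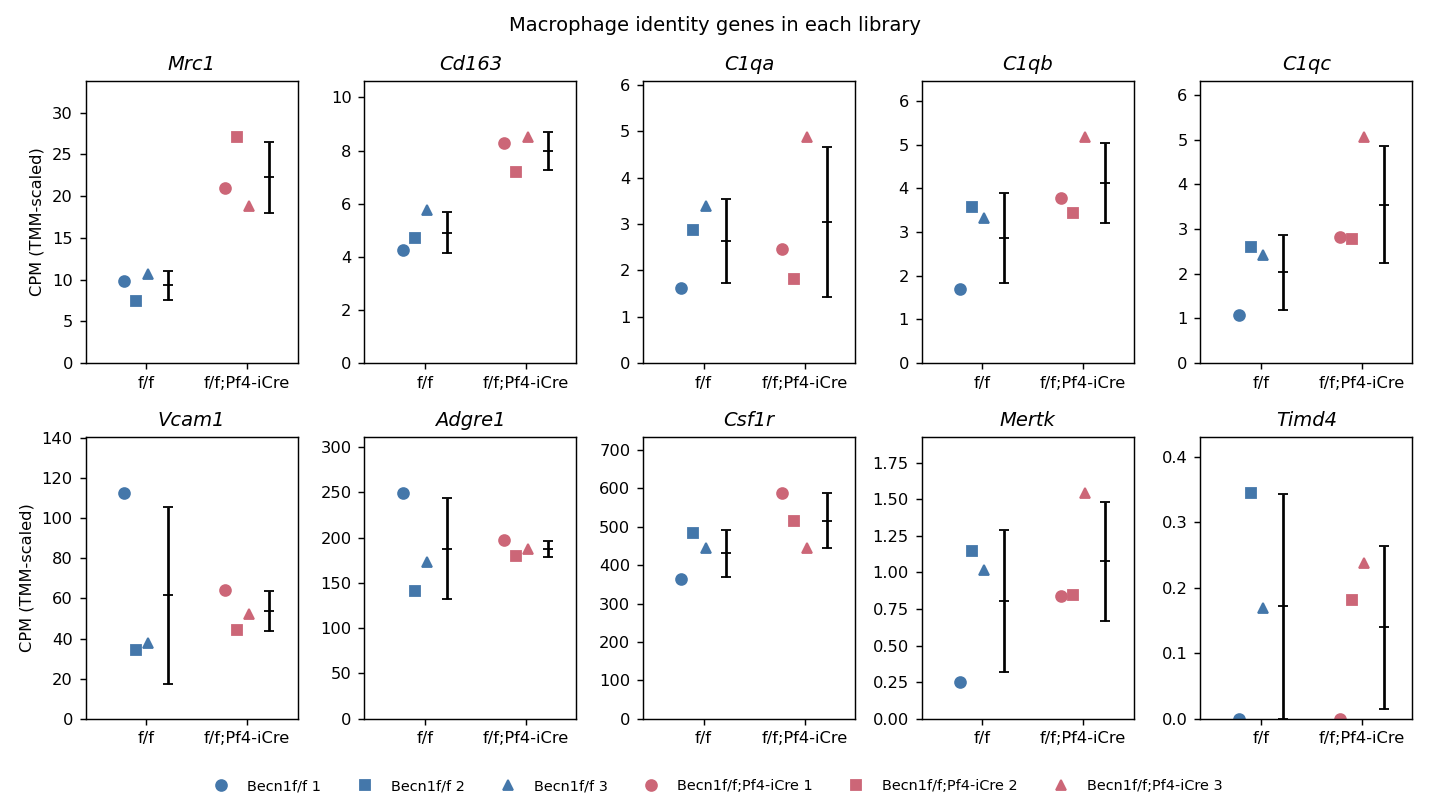
CPM of each of the 10 genes in the 3 control libraries (blue) and the 3 labelled Pf4-iCre libraries (red), with the mean and SD in black beside each group; each vertical axis starts at 0. The groups are separate for *Mrc1*, *Cd163* and *C1qc*, and control library 1 (blue circle) is the highest in *Vcam1* and *Adgre1* and the lowest in *C1qa*, *C1qb*, *C1qc* and *Mertk*.

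**Figure D3:**
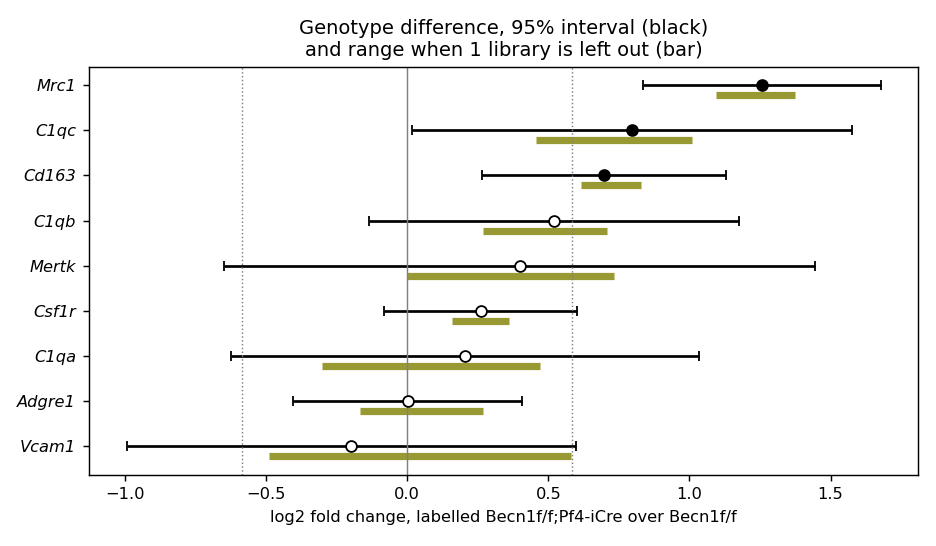
Log2 fold change of the 9 tested genes (labelled Pf4-iCre over control) with its 95% interval in black, filled where the thresholds were passed, and below it a bar spanning the values with 1 library removed at a time; dotted lines mark a fold change of 1.5 in either direction. The bar of *Mrc1* runs from 1.09 to 1.37, while those of *C1qa*, *Adgre1*, *Vcam1* and *Mertk* cross 0.

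Values of the groups did not overlap for 3 of the 9 tested genes, all 3 higher in the labelled Pf4-iCre libraries; among all tested genes 5.42% were separate in this direction and 5.18% in the other. To describe how the members varied together, each gene's log2(CPM + 0.5) was centred on its mean over the 6 libraries, and the mean absolute difference between 2 genes was taken over the libraries. The smallest of the 36 pairwise differences were between *C1qb* and *Mertk* (0.11 on the log2 scale) and between *C1qb* and *C1qc* (0.12). *Vcam1* and *Mertk* were the farthest apart (0.76), with *Vcam1* highest and *Mertk* lowest in control library 1. *Mrc1* and *Cd163* were below their mean in every control library and above it in every labelled Pf4-iCre library. The C1q genes and *Mertk* departed most in control library 1 and labelled Pf4-iCre library 3, while *Vcam1* and *Adgre1* were highest in control library 1 (1.08 and 0.43) and lowest in control library 2 (-0.62 and -0.39). All 6 libraries enter each of these distances, so shared depth and scaling are part of them. *Mertk* lay at 0.251 to 1.54 CPM, so the added 0.5 CPM shrinks its changes. Its closeness to *C1qb* may rest on that constant, and distances without it were not taken.

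**Figure D4:**
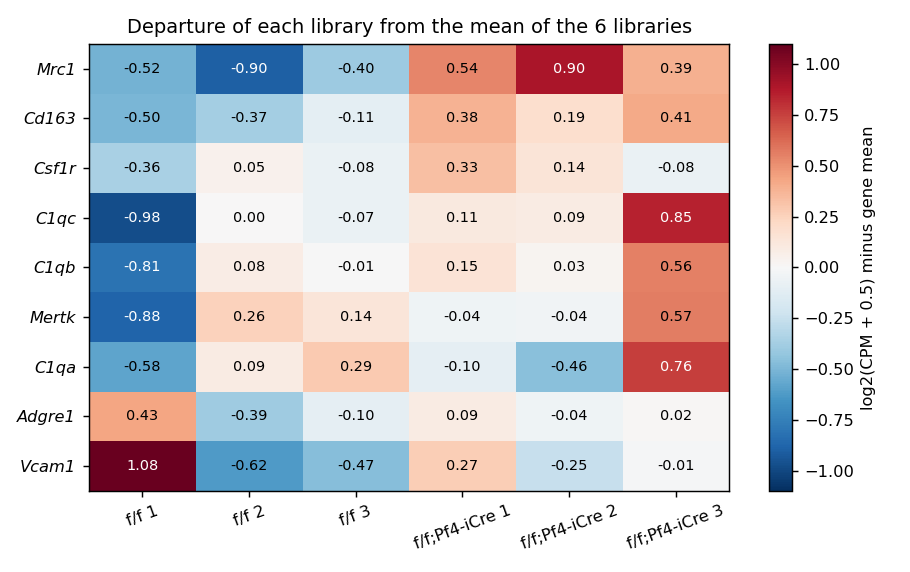
Departure of each library from the gene's mean over the 6 libraries, as log2(CPM + 0.5), for the 9 tested genes; red is above and blue below the mean. Control library 1 is at 1.08 for *Vcam1* and -0.98 for *C1qc*, and labelled Pf4-iCre library 3 is at 0.85 for *C1qc*, while *Mrc1* and *Cd163* change color between the genotypes.

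The ligands and partners of these proteins were looked at as a list of 9 genes, of which 6 were tested. None was called in either direction. *Csf1*, the main ligand of the *Csf1r* product, was at 146, 98.9 and 175 CPM in the control libraries and at 145, 141 and 137 CPM in the labelled Pf4-iCre libraries, within the control range (log2 fold change 0.0093, 95% interval -0.39 to 0.41). The other ligand gene, *Il34*, had 1 read in control library 1 and 0 in the other 5. Of the bridging proteins that tie the *Mertk* product to dying cells, *Pros1* was at 24.0 to 31.8 CPM in the controls and 29.4 to 37.1 CPM in the labelled Pf4-iCre libraries (log2 fold change 0.27, adjusted p = 0.884). *Gas6* had only 6 to 15 reads per library and was not tested. *C1ra*, for a protease that binds C1q, was at 6.58 to 8.69 CPM in the controls and 6.33 to 8.27 CPM in the labelled Pf4-iCre libraries (log2 fold change -0.08), and *C1s1*, for its partner protease, had 1 to 10 reads. *Hp*, which encodes haptoglobin and is expressed by neutrophils as well, was at 483 to 691 CPM in the controls and 494 to 658 CPM in the labelled Pf4-iCre libraries (log2 fold change -0.02).

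*Itga4* and *Itgb1* encode the chains of the integrin that binds the *Vcam1* product. *Itga4* was at 474, 396 and 475 CPM in the control libraries and at 491, 694 and 650 CPM in the labelled Pf4-iCre libraries. It was the only gene of this list whose groups did not overlap, which also holds for 5.42% of all tested genes in this direction. The difference, 0.45 on the log2 scale with a standard error of 0.16 and an adjusted p of 0.589 in the edgeR test, stayed under a fold change of 1.5. For *Itgb1*, at 280 to 329 CPM in the controls and 307 to 358 CPM in the labelled Pf4-iCre libraries, the log2 fold change was 0.16 (standard error 0.13).

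Among 12 transcription factors of macrophages, 11 were tested and 0 were called lower (against 0.938% of all tested genes), and the median was 0.23 on the log2 scale. *Maf* and *Klf4* were among those called higher, against 1.36% of all tested genes. *Maf*, a leucine zipper factor of macrophages, was at 4.51, 4.66 and 5.31 CPM in the control libraries and at 5.93, 9.41 and 8.20 CPM in the labelled Pf4-iCre libraries (log2 fold change 0.70, standard error 0.22), a call lost without labelled Pf4-iCre library 2 (0.55). *Klf4*, which is needed for monocyte formation, was at 540, 424 and 417 CPM and at 710, 771 and 718 CPM (log2 fold change 0.67, standard error 0.15). The adjusted p in the edgeR test was 0.455 for *Maf* and 0.171 for *Klf4*. In both genes the groups were separate, which also holds for 5.42% of all tested genes in this direction. Of 19 other genes of marrow and tissue macrophages, 15 were tested, and 12 had a log2 fold change above 0. Only *Siglec1* was called higher, against 1.36% of all tested genes. After adjustment over all genes, the edgeR test gave it a p of 0.592. *Siglec1* encodes a sialic acid receptor of resident macrophages and rose from 2.32, 6.73 and 8.97 CPM to 13.6, 13.5 and 9.15 CPM (log2 fold change 1.00, standard error 0.36). Without labelled Pf4-iCre library 1, 0 genes of this list were called, and without control library 1, 2 or 3 the number was 3, 4 and 3. The median of that list was 0.18, against -0.02 over all tested genes. Its genes *Marco*, *Folr2*, *Ms4a7* and *Vsig4*, named after their values were seen, did not pass the filter. *Marco*, *Folr2* and *Vsig4* stayed at or below 0.119 CPM. *Ms4a7* was at 0.188 to 0.282 CPM in the controls and 0.482 to 1.20 CPM in the labelled Pf4-iCre libraries. These *Ms4a7* ranges did not overlap, as for 5.42% of all tested genes in this direction, but the difference was not tested. In the engulfment list, 14 of 17 genes were tested with a median of 0.11, and 0 were called higher. The only gene called lower, against 0.938% of all tested genes, was *Xkr8*, which encodes a scramblase that exposes phosphatidylserine in dying cells. *Xkr8* went from 5.96, 5.98 and 5.76 CPM to 3.78, 3.62 and 3.86 CPM (log2 fold change -0.65, standard error 0.20, adjusted p = 0.453 in the edgeR test).

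The genes whose profile lay nearest to the mean centred profile of the 9 members, among 8774 genes at a mean of at least 10 CPM, were *Adam9*, *Lmln*, *F13a1*, *Dock4* and *Dop1a*, at mean absolute differences of 0.076 to 0.089 on the log2 scale over the 6 libraries. *F13a1*, which encodes the A subunit of coagulation factor XIII, is counted here in the list of monocyte markers. Which cells of the libraries it came from was not tested. It was at 2020 CPM on average, and its own log2 fold change was 0.39 (standard error 0.14). None of the 5 was called.

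Markers of other blood cells also differed in level between the groups, and their part in the differences was not tested. All 10 monocyte markers were tested. Of these, 9 had a log2 fold change above 0 and 5 had an unadjusted *P* under 0.05 in the edgeR test, against 6.31% of all tested genes. Of the 10, 0 reached a fold change of 1.5, and the median was 0.39. Their sum was 9850 to 11631 CPM in the control libraries and 12952 to 15090 CPM in the labelled Pf4-iCre libraries, with no overlap. Dendritic cell markers also separated by their sum, at 262 to 275 and 323 to 363 CPM. Of the 9, *Flt3* and *Cd209a* were called higher, against 1.36% of all tested genes. The log2 fold changes of *Flt3* and *Cd209a* were 0.74 (standard error 0.14) and 0.93 (standard error 0.17), while the median of the list was 0.02. The edgeR test gave them adjusted p of 0.111 and 0.0938. *Flt3* was at 60.8 to 78.1 CPM in the controls and 107 to 131 CPM in the labelled Pf4-iCre libraries. *Cd209a* was at 22 to 31 and 43 to 58 CPM. Of the 9 genes, 5 lay above 0 and 4 below. The separate sums thus rest largely on *Flt3* and *Cd209a* and show no rise across the list.

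Lower in the labelled Pf4-iCre libraries were erythroid genes, with 11 tested, 6 called lower (against 0.938% of all tested genes) and a median of -0.65. The 6 were *Slc4a1* (-1.18), *Ermap* (-0.95), *Klf1* (-0.94), *Rhag* (-0.93), *Alas2* (-0.64) and *Hba-a1* (-0.59), each value a log2 fold change, and reads of *Hba-a1* may be split with its twin gene. The number called lower was 3 without control library 1, 3 without labelled Pf4-iCre library 1 and 3 with DESeq2. Their summed list was 485 to 797 CPM in the controls and 384 to 505 CPM in the labelled Pf4-iCre libraries, so the sums overlapped. Neutrophil markers had a median of -0.43 with 12 of 13 below 0 and *Mmp9* (-0.59) called lower, a number that ran from 0 (without labelled Pf4-iCre library 1) to 7 (without labelled Pf4-iCre library 3), and they summed to 11664 to 16700 and 9094 to 12248 CPM. Among the 7 tested stromal and endothelial markers the median was 0.03, the sum was 120 to 145 CPM in the controls and 117 to 131 CPM in the labelled Pf4-iCre libraries, and *Kdr* (-0.80), which encodes a receptor of endothelial growth factor, was called lower, but not without control library 3 or labelled Pf4-iCre library 3. Only 2 of 7 osteoclast markers were tested and neither was called (median 0.26, summed level 10.2 to 15.1 CPM in the controls and 11.3 to 14.6 CPM in the labelled Pf4-iCre libraries). The megakaryocyte and platelet list, with 13 tested genes, had a median of -0.10, and *Pf4* (-1.01) was its only call.

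**Figure D5:**
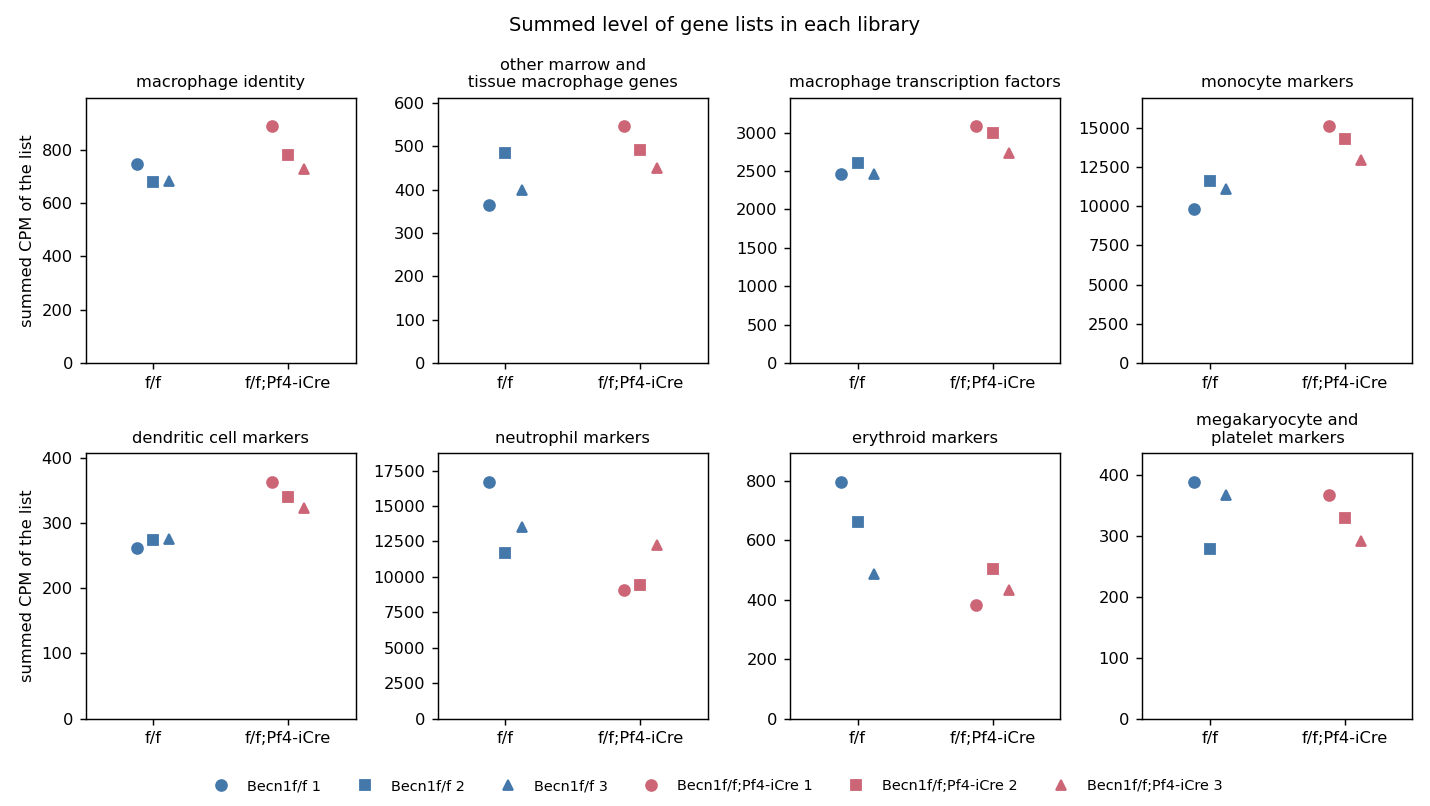
Summed CPM of 8 gene lists in each library, control in blue and labelled Pf4-iCre in red; each vertical axis starts at 0. The monocyte, dendritic cell and transcription factor sums are separate between the groups, whereas the sum of the macrophage identity genes overlaps, at 681 to 745 and 728 to 888 CPM.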

How the data were processed

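RNA of cells sorted from mouse bone marrow as megakaryocytes was sequenced on the DNBSEQ platform in 6 libraries. The authors removed low-quality, adapter-bearing and ambiguous reads and mapped the rest with HISAT; HISAT, Bowtie2 and the builds GRCm39 and mm39 are named in the submitters' processing notes, and the counting tool is not given in the sources used here. The deposited estimated counts need not be whole (10.3% to 11.3% of genes per library were not) and are not scaled. The deposited FPKM values carry the authors' scaling for depth and for transcript length; counts and FPKM implied the same length within 1.06 times between libraries for 9 members, and within 2.00 times for *Timd4*. The table holds 16 further columns of per-sample values and 8 of group means, none of them used here. Some of these per-sample columns belong to a further knockout library that matches none of the 6 samples. Group means that include that library were left out as well.

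Estimated counts were rounded, filtered by edgeR's expression filter (12256 of 16579 genes kept), scaled by TMM and compared by the quasi-likelihood test of edgeR 4.0.16 under R 4.3.3 (genotype only, Benjamini-Hochberg adjustment over all genes tested). As in the study's methods, a gene was called at an unadjusted *P* under 0.05 with a fold change of at least 1.5. Standard errors are the fold change on the log2 scale divided by the root of F. Nothing in the labels says how many mice stand behind a library, so the p-values measure the spread between libraries. The lists, the members and the motifs were chosen with earlier results of these data known. Genes named are the 10 members, *Becn1*, all listed ligands and partners, the called genes of the other lists, and the 5 nearest profiles; a further gene is not reported here. Of 12 erythroid genes listed, 11 were found in the table. Alternatives were DESeq2 1.42.0, limma 3.58.1 (voom, and log2(FPKM + 1 or 0.1)), other scalings and filters, the replicate number as a block, and leaving out each library; removal of GC content and length trends was added after the data were seen. The edgeR step was tested on simulated data. Figures were drawn with matplotlib 3.10.9.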

Additional observations from a re-analysis of the deposited data

How the results depend on the processing

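The 3 members called higher (*Mrc1*, *Cd163*, *C1qc*) were the same genes under upper-quartile scaling, DESeq2 and its size factors, no filter or a filter of 10 counts per library, limma-voom, the replicate block and the removal of GC content and length trends. With limma on log2(FPKM + 1) the number was 1, with an adjusted p under 0.05 as the threshold it was 0, and leaving out each library gave 2 to 3. It was 2 with log2(FPKM + 0.1) and with FPKM of at least 1. The number called lower was 0 under every alternative run. *Mrc1* kept its call in all 17 alternatives, with adjusted p from 5.91e-06 to 0.412, under 0.05 in 5 of them. *Cd163* fell below a fold change of 1.5 on log2(FPKM + 1) (0.40), a scale on which a pseudocount shrinks the change of low genes.

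Direction changed for 7 of the named genes that were not called. With 1 library removed at a time, the log2 fold change of *C1qa* ran from -0.30 to 0.47, *Vcam1* from -0.49 to 0.58, *Adgre1* from -0.17 to 0.27, *Mertk* from -0.00053 to 0.73, *Csf1* from -0.19 to 0.20, *C1ra* from -0.19 to 0.024 and *Hp* from -0.14 to 0.11. *Vcam1* was 0.0071 with the replicate block and 0.016 with limma-voom, *Adgre1* -0.0044 and *Csf1* -0.0024 with upper-quartile scaling, and *Hp* 0.061 without the GC content and length trends. The causes were not tested. Transcript GC content was at hand for 11953 of the 12256 tested genes, the 9 tested members among them. Across these genes the log2 fold change followed GC content (Spearman -0.34 across genes, which are not independent). Without the GC content and length trends, *Mrc1*, *Cd163* and *C1qc* were still called.

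Both genotypes use replicate numbers 1 to 3, but the labels tie them to no shared litter or day, and same-numbered libraries did not deviate together (correlations across genes of 0.06, -0.31 and 0.21 for numbers 1, 2 and 3). With the replicate block, 3 members were called higher, 0 lower, and *Mrc1* had an adjusted p of 0.0318. The adjusted threshold was passed by 77 genes with DESeq2, 19 with the block and 5 in the edgeR test without it. With 17 to 87 reads per C1q gene and 4 to 26 for *Mertk*, counting error alone limits what these genes can show.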
